A study of Mus musculus with 18 samples.

Results

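The PIM kinases Pim1, Pim2 and Pim3 were followed in mouse naive CD4 T cells exposed to IL-6 or IL-27 with and without STAT3. They were read from all probe sets that the array annotation assigns to one of these gene symbols alone, which gave 3 of 18193 genes and 6 of the 45037 probe sets for genes: 2 for Pim1, 1 for Pim2 and 3 for Pim3. PIM kinases are small serine/threonine kinases that are active as soon as they are made, so the amount of kinase in a cell follows mainly from how much of its mRNA and protein is present. Their genes are known targets of cytokine receptors that signal through JAK kinases and STAT transcription factors, and in T cells they support growth, translation and survival alongside AKT and mTOR. Many of their substrates are shared with AKT, among them the pro-death protein BAD.

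The 18 Affymetrix Mouse Genome 430 2.0 arrays fall into 6 groups of 3: STAT3-deficient cells with IL-27, with IL-6 or in medium alone, and WT cells with IL-27, with IL-6 or in medium alone. The cytokines were given at 20 ng/ml and all cells were harvested after 3 hours. All cells were of the C57BL/6J strain and were sorted from spleen and lymph nodes as CD4+CD44-CD62L+CD25-. The STAT3-deficient cells carried the STAT3 tm1Dlv allele with Cd4-Cre, which acts in cells that have expressed Cd4 and so leaves the gene intact in most other cells of the animal. Age and sex of the animals are not given in the labels, nor whether the WT cells carried Cre. The series' design text describes the arrays of a group as biological triplicates, and the labels do not say whether arrays with the same number came from the same animal.

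Values are the deposited signals, a linear intensity. Changes are differences in log2 of the signal plus 32 after quantile normalisation, with the standard error (SE) from a limma model over all 18 arrays. A probe set was called at an adjusted p under 0.05, with Benjamini-Hochberg adjustment over 26860 probe sets. Both cytokines of a genotype were set against the same medium arrays, so those comparisons are not independent. In these bulk samples, fewer cells that express a gene and less of its RNA per cell cannot be told apart.

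Several features of the whole series bear on the comparisons of genotypes. The deleted gene was lower in the arrays labelled STAT3-deficient by its brightest probe set, 1460700_at, with signals of 1122.5, 1264.7 and 1109.7 in STAT3-deficient medium against 3101.4, 2632.3 and 2361.4 in WT medium. Of its other 3 probe sets, 1 was lower in STAT3-deficient medium, 1 was higher and 1 was not called, and no source used here places any of them inside or outside the deleted exons. With IL-27, 1460700_at read 4310.6, 4637.8 and 3173.5 in STAT3-deficient cells, above the WT medium arrays. In WT IL-27 it read 8194.6, 7723.9 and 9260. The median signal of an array was 131.5 to 190.3 in STAT3-deficient cells and 104.4 to 126.8 in WT cells. T cell markers were above the array median on all 18 arrays for Cd3e and Cd3d. The 10 myeloid markers, all on the array, summed to 4375.1 to 8623.5 in STAT3-deficient cells and 2430.4 to 3277.1 in WT cells, with Itgam and Cd14 above the array median on 0 arrays. S100a8, S100a9 and Lyz2 carried the higher sum (41.9-fold, 33.9-fold and 3.92-fold higher in STAT3-deficient medium), while Cd68 (0.598-fold) and Fcgr3 (0.437-fold) were called lower there and Cst3 (0.707-fold) was called lower with IL-6. The 7 B cell markers read on the array summed to 5462.7 to 8810.4 in STAT3-deficient cells and 2945.4 to 6089 in WT cells, with Pax5 above the median on 0 arrays. Their part in the differences between genotypes was not tested, since the covariate fits given below cannot separate marker signal from genotype.

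The 250 bases before the start of each gene are shown because Pim1 and Pim2 were higher after cytokine while Pim3 was not called. Sequences are RefSeq's on build GRCm38.p6, all on the plus strand and written 5′ to 3′, and capitals mark matches to the GC box GGGCGG or the CCAAT box CCAAT, each searched on both strands (CCGCCC and ATTGG are the same boxes on the other strand).
Pim1, chr17:29490535-29490784: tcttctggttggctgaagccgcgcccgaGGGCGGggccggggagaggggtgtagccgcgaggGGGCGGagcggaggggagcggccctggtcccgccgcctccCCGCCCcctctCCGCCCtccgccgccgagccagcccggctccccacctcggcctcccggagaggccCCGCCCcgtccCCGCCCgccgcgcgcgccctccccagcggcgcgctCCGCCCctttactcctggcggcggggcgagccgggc
Pim2, chrX:7878056-7878305: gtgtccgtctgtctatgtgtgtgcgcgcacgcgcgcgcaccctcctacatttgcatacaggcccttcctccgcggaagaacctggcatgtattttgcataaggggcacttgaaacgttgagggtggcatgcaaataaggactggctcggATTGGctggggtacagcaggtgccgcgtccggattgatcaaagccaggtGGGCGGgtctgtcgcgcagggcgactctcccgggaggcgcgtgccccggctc
Pim3, chr15:88861944-88862193: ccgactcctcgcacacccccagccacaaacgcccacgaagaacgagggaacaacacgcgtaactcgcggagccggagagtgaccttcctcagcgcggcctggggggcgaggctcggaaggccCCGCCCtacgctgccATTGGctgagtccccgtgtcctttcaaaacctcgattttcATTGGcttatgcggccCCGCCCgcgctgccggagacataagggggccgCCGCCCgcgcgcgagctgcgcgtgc
The Pim1 window was 82.4% G or C and held 7 GC boxes, the nearest beginning 36 bases before the start. The Pim2 window was 62.0% G or C with 1 GC box and 1 CCAAT box, and the Pim3 window was 68.0% with 3 GC boxes and 2 CCAAT boxes. A GC box was present in 32.7% and a CCAAT box in 33.8% of 32851 RefSeq promoter windows of this length. The letters of a GAS element, TTCNNNGAA, the type of site that STAT dimers bind, were in none of the 3 windows and in 7.02% of all windows. Those of an ISRE, taken as GAAA, any 2 bases and GAAA, an element of many interferon-responsive promoters, were likewise in none of the 3 and in 2.98% of all windows. A second RefSeq start of Pim1 at chr17:29493085 had no match to any of the 4 motifs in its 250 bases and was 48.0% G or C. The genes themselves span chr17:29490785-29496111 for Pim1, chrX:7878306-7883432 for Pim2 and chr15:88862194-88865726 for Pim3.

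Pim1, the founding member of the family, was higher with IL-6 in WT cells and showed no called response to IL-27 or, without STAT3, to either cytokine. Its brighter probe set, 1435458_at, had signals of 15232.7, 14741.1 and 14488.5 in WT IL-6 against 8676.8, 8104.3 and 7853.5 in WT medium. The 3 IL-6 arrays lay well above the 3 medium arrays, with no overlap. The change was 0.82 ± 0.12 on the log2 scale, or 1.76-fold (adjusted p = 1.29e-04), in a comparison in which 6.19% of all tested probe sets were called. Marker sums of several cell types were lower in the same WT IL-6 arrays, with no overlap. B cell markers summed to 2945.4 to 3566.6 in WT IL-6 against 5673.7 to 6089 in WT medium. Only 1 of the 6 tested B cell markers was called lower, and their median change was -0.006. CD8 T and NK cell markers summed to 1901.7 to 2007.5 in WT IL-6 against 2994.3 to 3458.9 in WT medium. Of the 4 tested, Klrd1 was called lower, at -1.54, while Cd8a (0.07), Cd8b1 (0.03) and Prf1 (0.02) were not called. T cell markers summed to 61381.7 to 65490.5 in WT IL-6 against 85125.5 to 90337.7 in WT medium. Here 4 of the 6 tested markers were called lower, with a median change of -0.65. With B cell and myeloid marker signal as a covariate the Pim1 change was 0.76 (adjusted p = 2.63e-04). That covariate, the mean of the log2 marker signals, was 7.19 to 7.28 in WT IL-6 and 7.33 to 7.39 in WT medium. It moved little where the B cell sum fell, so the part of that fall was not tested. The part of the T, CD8 T and NK markers was not tested either.

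With IL-27 the same probe set had 10325.8, 10140.1 and 9003.4 in WT cells. All 3 arrays lay above those of WT medium, but the change of 0.20 ± 0.12 was not called (adjusted p = 0.53, with 3.06% of probe sets called), and its 95% interval ran from -0.05 to 0.46. Set directly against IL-6, IL-27 left Pim1 lower by a change of -0.61 ± 0.12 (adjusted p = 0.00566, 2.32% called), and the 3 IL-27 arrays were all below the 3 IL-6 arrays. This call was lost with median centring in place of quantile normalisation (adjusted p = 0.0557).

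In STAT3-deficient cells Pim1 was not called after either cytokine. Probe set 1435458_at had 6660.3, 9085.7 and 9467.7 in STAT3-deficient IL-27 and 7337.2, 9007.6 and 9783.9 in STAT3-deficient IL-6, against 7074.7, 8221.6 and 8357.8 in STAT3-deficient medium. The 3 groups overlapped, and in each the array numbered 1 was the lowest. The changes were -0.09 ± 0.12 for IL-27 (adjusted p = 0.831, 3.6% of all probe sets called) and 0.01 ± 0.12 for IL-6 (adjusted p = 0.993, 1.43% called). These SEs use a spread shared by all groups. The SD (log2) was 0.27 in STAT3-deficient IL-27 and 0.24 in STAT3-deficient IL-6, against 0.03 to 0.10 in the other groups. The SEs and intervals may thus be too narrow for these changes. In this fit the 95% intervals reached up to 0.16 for IL-27 and 0.26 for IL-6. Over all settings the changes ran from -0.189 to 0.27 for IL-27 and from -0.0697 to 0.325 for IL-6, with no call under any. Against the median of all tested probe sets, IL-27 was at -0.06 after quantile normalisation and 0.17 under the deposited scaling. IL-6 was at 0.03 and 0.21 in the same order, so the size of these changes depended on the scaling.

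The IL-6 effect on Pim1 differed between the genotypes, by -0.81 ± 0.17 (STAT3-deficient minus WT, adjusted p = 0.0123), in a comparison with 2.21% of probe sets called. Without the STAT3-deficient arrays numbered 1, a choice made after seeing the data, the difference was -0.73 (adjusted p = 0.00159), and with B cell and myeloid marker signal as a covariate it was -0.71 (adjusted p = 0.0314). It was not called with median centring, at -0.49 (adjusted p = 0.37), or without a trend of variance on mean (adjusted p = 0.0605). The difference in the IL-27 effect was -0.29 ± 0.17 and not called (adjusted p = 0.711), in a comparison with 0.00745% of probe sets called, 2 in all, against 1953 at an unadjusted p under 0.05.

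The second Pim1 probe set, 1423006_at, showed the same order of the WT groups at lower signals. It had 6509.7, 6598.1 and 5942.8 in WT IL-6, 4610.5, 4340.8 and 4055.7 in WT IL-27, and 4169.5, 4488.8 and 3771.5 in WT medium. The IL-6 arrays stood above all others, while the IL-27 and medium arrays overlapped. The IL-6 change was 0.59 ± 0.17 (adjusted p = 0.044), and this call was lost under 14 of the 32 other settings, with adjusted p up to 0.144. In STAT3-deficient cells it had 2036.7, 3051.9 and 2762.8 with IL-27, 2065.2, 2825.1 and 3338.4 with IL-6, and 1759.2, 2388.5 and 2529.8 in medium. Those 3 groups overlapped, neither cytokine change was called, and the IL-6 effect differed between genotypes by -0.36 ± 0.24 (adjusted p = 0.647), so the difference called by 1435458_at was not called here.

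The Pim1 probe sets disagreed on the level between genotypes. By 1423006_at all 9 STAT3-deficient arrays lay below all 9 WT arrays in the deposited signals, with changes of -0.74 ± 0.17 in medium (adjusted p = 0.00482), -1.10 ± 0.17 with IL-6 (adjusted p = 1.46e-04) and -0.64 ± 0.17 with IL-27 (adjusted p = 0.0171). The IL-27 call was lost without WT IL-27 replicate 1 (adjusted p = 0.0573) or 2 (0.0539) and without STAT3-deficient IL-27 replicate 1 (0.0918). By 1435458_at only the IL-6 groups were called, at -0.60 ± 0.12 (adjusted p = 0.00145), with 0.21 ± 0.12 in medium (adjusted p = 0.219) and -0.08 ± 0.12 with IL-27 (adjusted p = 0.683). Within an array, 1435458_at exceeded 1423006_at as group means by 1.68 to 1.93 on the log2 scale in STAT3-deficient cells, against 0.98 to 1.20 in WT cells. The share of all probe sets called between genotypes was 24.3% in medium, 20.4% with IL-6 and 14.7% with IL-27, so a call is common there.

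The difference of level by 1435458_at depended on the scaling, and those by both probe sets changed when the marker signal was added to the fit. By 1423006_at each genotype call was kept under the deposited scaling and median centring. In medium 46.4% of the calls between genotypes were higher in STAT3-deficient cells after quantile normalisation, 64.1% under the deposited scaling and 11.4% after median centring, where the median of all probe sets moved by -0.36. Against that median, Pim1 by 1435458_at was at 0.21 in medium after quantile normalisation and at -0.24 under the deposited scaling, so its direction there is not settled; median centring gives that same value by construction. The marker covariate was 8.20 to 8.58 on the STAT3-deficient arrays and 7.19 to 7.45 on the WT arrays, with no overlap. A fit with it carries a slope from within the groups across that gap. It therefore cannot separate marker signal from genotype. With the marker signal as a covariate, no Pim1 difference between genotypes was called, and the standard errors were wider. Probe set 1435458_at was then at 0.75 ± 0.33 in medium, 0.04 ± 0.38 with IL-6 and 0.45 ± 0.32 with IL-27, and 1423006_at was at 0.14 ± 0.45, -0.05 ± 0.53 and 0.23 ± 0.45 for the same treatments. The covariate thus raised each of these values, turning the sign of 4 of the 6.

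**Figure D1:**
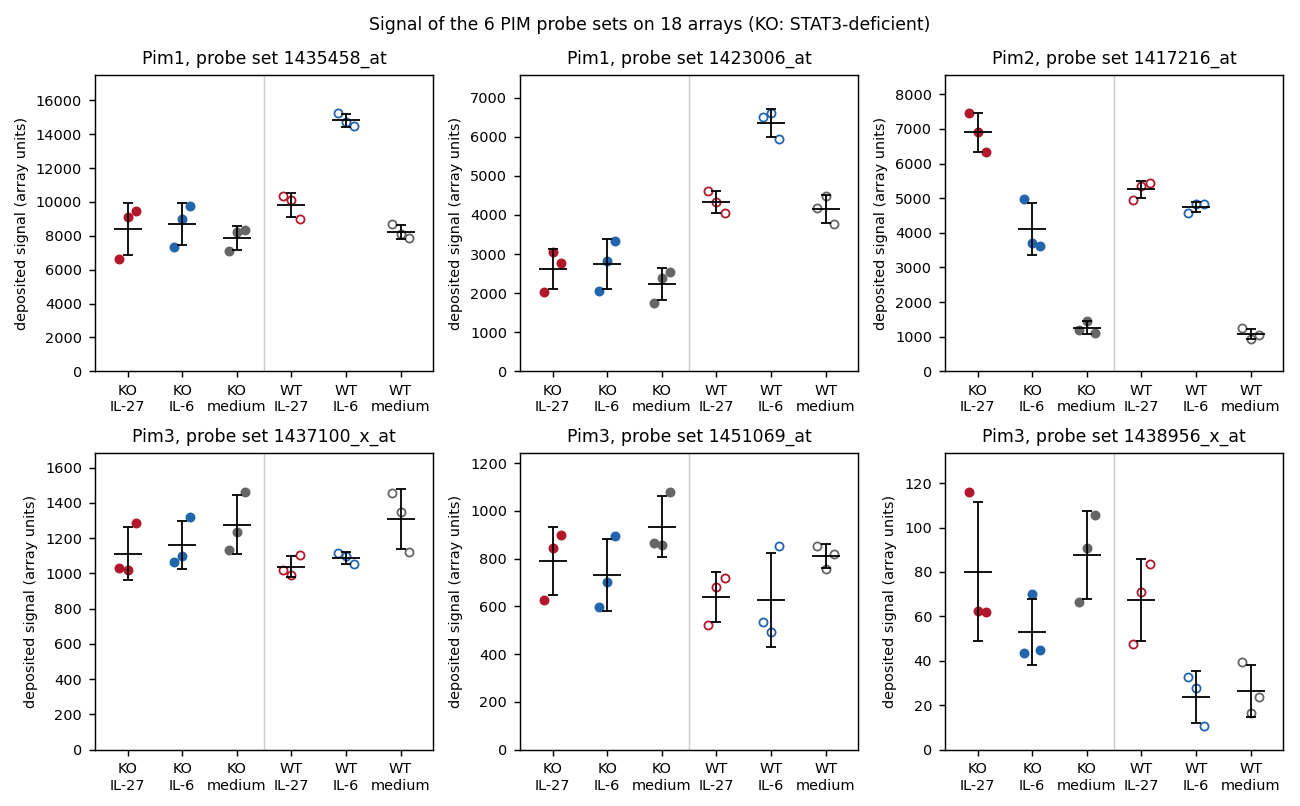
Deposited signal (array units, linear axis from 0) of the 6 PIM probe sets on each array; points are arrays, filled for STAT3-deficient (KO) and open for WT cells, bars are the group mean with SD (n = 3). Pim1 stands out in WT IL-6, Pim2 is high in all 4 cytokine groups, and 2 Pim3 probe sets stay near 491.8 to 1464.6 throughout, while the third, 1438956_x_at, lies below the array median on all 18 arrays.

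Pim2, the family member best known from lymphocytes, where it sustains growth and survival under cytokines, was higher with both cytokines and in both genotypes. Its only probe set, 1417216_at, had 4958.6, 5358.9 and 5435.8 in WT IL-27 and 4576.5, 4828.1 and 4833.8 in WT IL-6, against 1241, 938.2 and 1056.1 in WT medium. Every cytokine array was several times brighter than every medium array. The changes were 2.20 ± 0.13 for IL-27 (4.58-fold, adjusted p = 4.47e-10) and 2.05 ± 0.13 for IL-6 (4.15-fold, adjusted p = 1.97e-09). Counted from the highest change among 26860 probe sets, Pim2 ranked 67 for IL-27 and 64 for IL-6. With B cell and myeloid marker signal as a covariate the IL-6 change was 2.13.

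The cytokine responses of Pim2 were also present without STAT3. Signals were 7450.3, 6910.4 and 6333.4 in STAT3-deficient IL-27, the highest of the series for Pim2, and 4989.5, 3710.6 and 3629.2 in STAT3-deficient IL-6, against 1192.7, 1467 and 1120.7 in STAT3-deficient medium. No cytokine array overlapped with a medium array. The changes were 2.43 ± 0.13 for IL-27 (5.38-fold, adjusted p = 8.91e-11) and 1.69 ± 0.13 for IL-6 (3.22-fold, adjusted p = 3.32e-08). All 4 Pim2 responses to a cytokine remained called under each of the 33 other settings, with values from 1.53 to 2.62.

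Neither Pim2 response was called as different between genotypes. The IL-6 effect in STAT3-deficient minus WT cells was -0.37 ± 0.18 with a 95% interval from -0.74 to 0.01 (adjusted p = 0.446), and the IL-27 effect was 0.23 ± 0.18 with an interval from -0.14 to 0.60 (adjusted p = 0.762). A partial loss of the IL-6 response is inside that interval. So a genotype difference of the IL-6 effect was called for Pim1 and not for Pim2, and the 2 genes were not set against each other in a test.

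Pim2 was also compared between the cytokines. In STAT3-deficient cells IL-27 gave more than IL-6, by 0.74 ± 0.13 (1.67-fold, adjusted p = 0.01), in a comparison with 0.205% of all probe sets called, and the 3 IL-27 arrays were all brighter than the 3 IL-6 arrays. This call was lost with median centring (adjusted p = 0.311), with only the arrays compared in the fit (0.168), without a trend of variance (0.0661), without the arrays numbered 3 (0.0696), and without STAT3-deficient IL-6 replicate 2 (0.0826) or 3 (0.0848) or STAT3-deficient IL-27 replicate 1 (0.0956). In WT cells the same contrast was 0.14 ± 0.13 (adjusted p = 0.864), and the difference between genotypes was 0.60 ± 0.18 (adjusted p = 0.191), where 0.827% of probe sets were called. For Pim1 by 1435458_at that difference was 0.52 ± 0.17 (adjusted p = 0.275), with IL-27 minus IL-6 at -0.10 in STAT3-deficient cells and -0.61 in WT cells. It was called with the replicate number within genotype as a block (0.52, adjusted p = 0.00991), without the STAT3-deficient arrays numbered 1 (0.53, adjusted p = 0.0341) or without STAT3-deficient IL-27 replicate 1 alone (0.67, adjusted p = 0.0465).

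Between genotypes Pim2 was called at 1 of the 3 treatments. The changes were 0.28 ± 0.13 in medium (adjusted p = 0.114) and -0.09 ± 0.13 with IL-6 (adjusted p = 0.67). With IL-27 it was higher in STAT3-deficient cells by 0.51 ± 0.13 (adjusted p = 0.0111), a call lost with median centring (0.10) and turned to -0.18 with the marker covariate, neither called. It was also lost without WT IL-27 replicate 1 (adjusted p = 0.0517) or STAT3-deficient IL-27 replicate 1 (adjusted p = 0.0526).

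**Figure D2:**
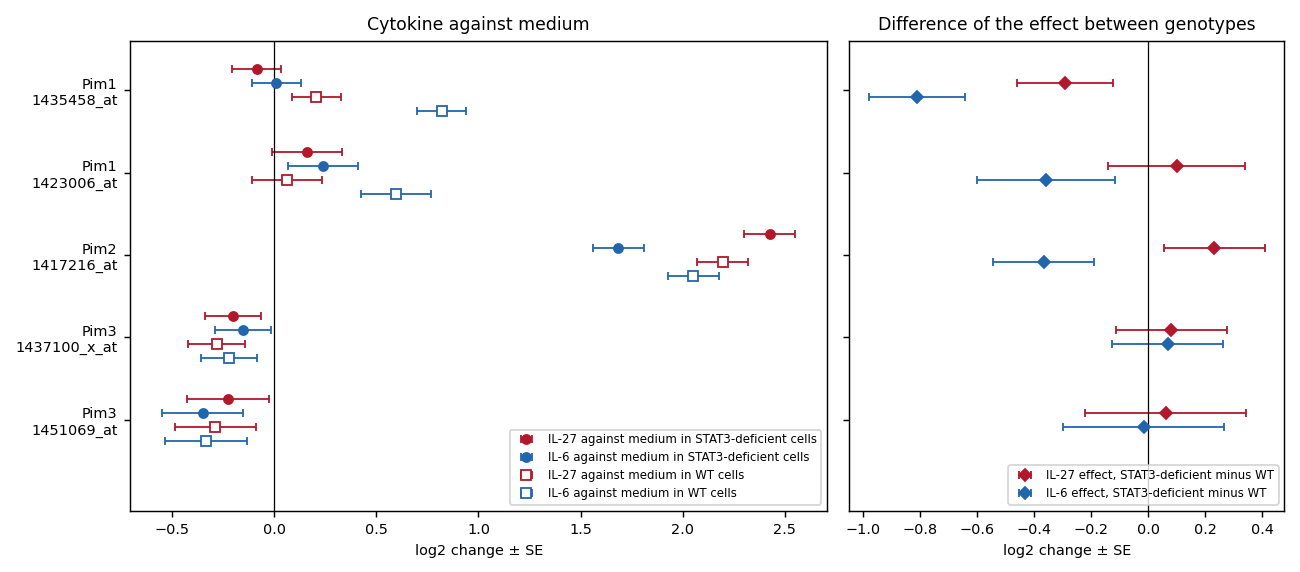
Change in log2 signal with its SE for the 5 tested PIM probe sets: cytokine against medium in each genotype on the left (filled circles STAT3-deficient, open squares WT), and the difference of each effect, STAT3-deficient minus WT, on the right. The 4 Pim2 changes lie at 1.69 to 2.43, and among the differences Pim1 1435458_at for IL-6 is farthest from 0, at -0.81.

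Pim3, whose kinase domain is close to that of Pim1, was not called in any of the 12 comparisons of the main fit by either tested probe set. Its changes there ran from -0.35 to 0.25. Probe set 1437100_x_at had 1028.8, 1021.1 and 1288.9 in STAT3-deficient IL-27, 1062.3, 1101.7 and 1318.3 in STAT3-deficient IL-6, and 1133.7, 1233.5 and 1464.6 in STAT3-deficient medium. In WT cells it had 1021.5, 989 and 1106.5 with IL-27, 1116.4, 1097.5 and 1052.2 with IL-6, and 1455, 1350.3 and 1120.1 in medium. In each genotype the medium group had the highest mean. The cytokine changes by this probe set were all below 0, from -0.15 to -0.28, with adjusted p of 0.412 to 0.895. By this probe set the interval that reached lowest was that for IL-27 in WT cells, from -0.57 to 0.01. A fall as large as the Pim1 rise of 0.82 lay outside it.

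The second Pim3 probe set, 1451069_at, lay between 491.8 and 1081 on the 18 arrays. Its 4 cytokine changes were also below 0, from -0.23 to -0.35, with adjusted p of 0.473 to 0.758. The third, 1438956_x_at, exceeded its array's median on 0 of 18 arrays, with signals of 10.6 to 116.2, and was not tested. With no filter on dim probe sets its changes had adjusted p of 0.203 or more.

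The level of Pim3 between genotypes moved with the marker covariate, which cannot be separated from genotype here. STAT3-deficient against WT, 1437100_x_at was then at 1.01 ± 0.32 in medium (adjusted p = 0.0795), 1.27 ± 0.37 with IL-6 (0.0793) and 1.08 ± 0.31 with IL-27 (0.082), and 1451069_at was at 1.52 ± 0.49 (0.0836), 1.76 ± 0.57 (0.113) and 1.56 ± 0.48 (0.0972). All 6 were above 0 and none was called. The level also moved with median centring, where the median of all probe sets moved by -0.36 in medium. There 1437100_x_at was called lower in STAT3-deficient medium, at -0.574 (limma adjusted p = 0.00846), against 0.02 and no call after quantile normalisation.

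The order of the groups summarises the 3 genes. For Pim1 by 1435458_at the 5 lower groups, from WT medium at a mean of 12.94 (log2) to STAT3-deficient IL-6 at 13.15, overlapped each with its neighbour, and only WT IL-6 at 13.75 stood clear. For Pim2 the medium groups came lowest, at 10.36 in STAT3-deficient and 10.08 in WT cells. STAT3-deficient IL-6 at 12.05, WT IL-6 at 12.13 and WT IL-27 at 12.28 overlapped each with the next, and STAT3-deficient IL-27 at 12.79 stood above them. For Pim3 by 1437100_x_at every group overlapped its neighbours, from 10.07 in WT IL-27 to 10.37 in STAT3-deficient medium.

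The genes with the most similar pattern were found by Pearson correlation with each PIM gene over the 18 arrays, among 11970 other genes, as a description in which all values share the arrays and their normalisation. For Pim1 these were Rnf19a (r = 0.941), Mcm4 (0.911), Cdkn2d (0.903), Junb (0.883) and Map3k8 (0.874). Mcm4 is a subunit of the replicative helicase, Cdkn2d an inhibitor of the kinases CDK4 and CDK6, Junb an AP-1 transcription factor and Map3k8 a kinase upstream of ERK. Since likeness to Pim1 over these arrays chose them, their changes are given with no test. With IL-6 those changes were from -0.13 for Cdkn2d to 0.27 for Map3k8 in STAT3-deficient cells, and from 1.25 ± 0.10 for Mcm4 to 2.56 ± 0.24 for Map3k8 in WT cells.

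For Pim2 the most similar genes were Gbp2 (r = 0.982), Gbp3 (0.980), Aopep (0.964), Parp9 (0.957) and Zbp1 (0.955). Gbp2 and Gbp3 encode interferon-inducible guanylate-binding proteins, Parp9 an interferon-inducible partner of the ubiquitin ligase DTX3L, and Zbp1 a sensor of Z-form nucleic acids. Their changes too are a description. Gbp2 changed by 5.06 ± 0.18 with IL-27 and 4.23 ± 0.18 with IL-6 in STAT3-deficient cells, and by 5.30 ± 0.18 with IL-27 and 4.53 ± 0.18 with IL-6 in WT cells. The IL-6 effect, STAT3-deficient minus WT, was 0.82 ± 0.17 for Parp9 and 1.32 ± 0.29 for Zbp1. It was 0.06 ± 0.32 for Gbp3, -0.04 ± 0.20 for Aopep and -0.30 ± 0.25 for Gbp2. For Pim2 it was -0.37 ± 0.18 and not called.

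For Pim3 the most similar genes were Cks1b (0.856), Hmgb3 (0.834), Snx4 (0.828), Ctsl (0.805) and Ankrd33b (0.795). Cks1b is a small cell-cycle protein that binds cyclin-dependent kinases, Hmgb3 a chromatin protein and Ctsl the lysosomal protease cathepsin L. Their cytokine changes, again a description, ran from -0.45 to -0.06. Between the PIM genes themselves, r was 0.699 for the pair of Pim1 probe sets, 0.269 for Pim1 by 1435458_at with Pim2, and -0.60 for Pim2 with Pim3 by 1437100_x_at.

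**Figure D3:**
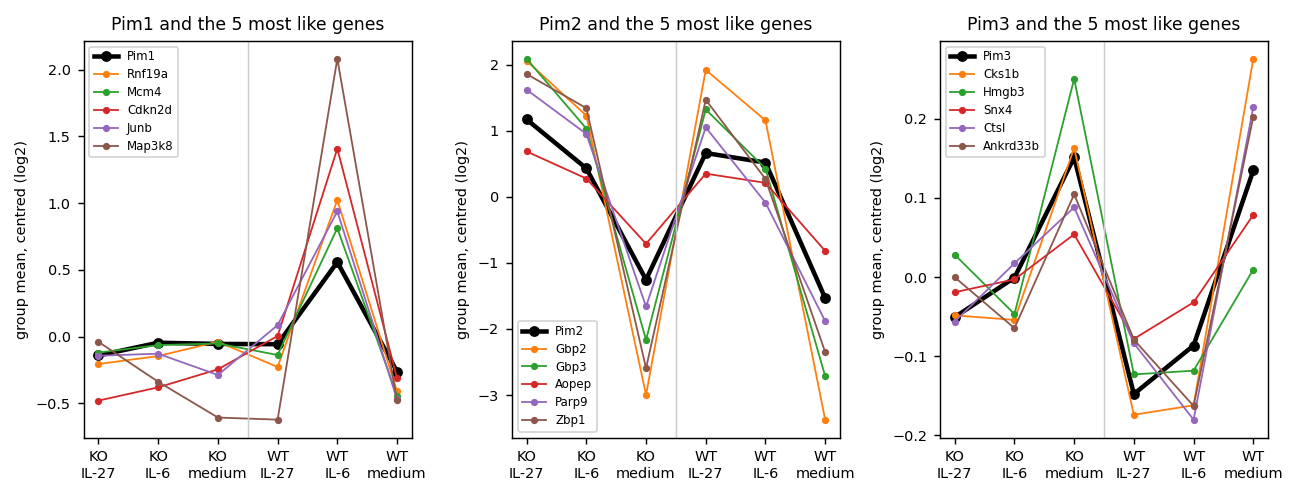
Group means of log2 signal, centred on the mean over the 6 groups, for each PIM gene (thick black line) and the 5 genes most correlated with it over 18 arrays; the vertical scales differ between panels. Pim1 and its 5 genes peak in WT IL-6, Pim2 and its 5 genes are lowest in both medium groups, and the Pim3 panel covers a much narrower range.

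Upstream of the PIM genes, 26 of 27 listed cytokine receptor, JAK, STAT and SOCS genes were tested, each by its brightest kept probe set. The shares set beside the lists are over all 26860 probe sets, which is an unlike base. With 1 probe set per gene, 996 of 11971 genes were called for IL-6 in WT cells, against 1663 probe sets. With IL-6 in WT cells 7 of the 26 rose and 2 fell, where 6.19% of all probe sets were called. The list median was 0.01, against -0.01 over all probe sets. The largest changes were Socs3 at 4.18 ± 0.15 and Socs1 at 1.96 ± 0.20, inhibitors of receptor signalling, Stat3 at 1.88 ± 0.12, and the kinase Jak3, which rose 2.83-fold. The members that fell, given outside the rule for naming because there were 2, were Jak1 at -0.72 ± 0.09 and Stat5a at -0.48 ± 0.12. In the WT response to IL-27 (3.06% called overall) 6 rose and 2 fell, led by Socs1 at 3.28 ± 0.20, Socs3 at 2.34 ± 0.15 and Stat2 at 2.11 ± 0.17.

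In STAT3-deficient cells 5 of these 26 genes rose with IL-27 and 4 with IL-6, and none fell with either, in comparisons with 3.6% and 1.43% of all probe sets called (3816 and 2069 had an unadjusted p under 0.05). With IL-27 these were Socs1 at 3.74 ± 0.20, Stat2 at 2.37 ± 0.17, Stat3 at 1.77 ± 0.12, Socs3 at 1.43 ± 0.15 and Cish at 0.73 ± 0.17. Stat3 among them is the deleted gene itself. The IL-6 effect differed between genotypes for 6 of the 26. It was smaller without STAT3 for Socs3, at -3.41 ± 0.22, Jak3, at -1.66 ± 0.31, Il6st, the shared receptor chain gp130, at -0.90 ± 0.17, and Stat3 at -0.87 ± 0.17, and the difference was above 0 for Stat2, at 1.02 ± 0.25, and Jak1, at 0.62 ± 0.13. Pim1 by 1435458_at, at -0.81, was close in size to Il6st, while the Pim2 value of -0.37 was not called. Between genotypes in medium 8 of the 26 were higher and 3 lower in STAT3-deficient cells, where 24.3% of all probe sets were called, among them Socs2 at 1.16 ± 0.26 and Jak2 at 0.89 ± 0.10.

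Downstream, 30 of 31 genes reported as PIM substrates or PIM-controlled regulators were tested, on their mRNA alone, since the arrays measure no phosphorylation. Socs1 and Socs3 are on this list as well as on the upstream one. Both rose with each cytokine in each genotype, so the rises counted below include genes already counted upstream. With IL-6 in WT cells 5 rose and 4 fell, where 6.19% of all probe sets were called, with a list median of 0.07 against -0.01 over all. Apart from Socs3 and Socs1, the largest rise was that of Map3k5, the stress kinase ASK1, at 2.05 ± 0.14, and Cdkn1a, the cell-cycle inhibitor p21, was higher by 1.46 ± 0.42. Those that fell, named after their values were seen, were Cxcr4, a chemokine receptor, at -1.44 ± 0.22, Eif4ebp1, a translation repressor, at -0.70 ± 0.18, Myb at -0.62 ± 0.18 and Foxo1 at -0.51 ± 0.12. With IL-27 in WT cells (3.06% called overall) 3 rose and 2 fell. The rises were those of Socs1, Socs3 and Map3k5, the last at 1.29 ± 0.14, and Myb (0.499-fold) and Foxo1 (0.715-fold) fell. In STAT3-deficient cells 4 rose and 1 fell with IL-27 (3.6% called overall), and 3 rose and none fell with IL-6 (1.43%). The 3 that rose with IL-6 were Socs1, Socs3 and Map3k5, and each of them also rose with IL-27. Map3k5 was at 1.14 ± 0.14 with IL-27 and 0.59 ± 0.14 with IL-6. Its IL-6 effect differed between genotypes by -1.46 ± 0.20 (adjusted p = 3.2e-04). Between genotypes in medium 4 of the 30 were higher and 4 lower in STAT3-deficient cells (24.3% called overall), led by Foxo3, a FOXO transcription factor, at -0.89 ± 0.24.

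Of 22 listed genes of the parallel AKT and mTOR pathway 19 were tested. With IL-6 in WT cells, where 6.19% of all probe sets were called, 1 rose, Akt2 at 1.02 ± 0.10, and 2 fell, Eif4ebp1 at -0.70 and Pik3r1, the p85 regulatory subunit, at -0.49 ± 0.12. With IL-27 in WT cells Akt2 alone was called, at 0.45 ± 0.10 (3.06% called overall). In STAT3-deficient cells Eif4ebp1 alone was called with IL-27, at -0.70 (3.6%), and no member was called with IL-6 (1.43%). The IL-6 effect on Akt2 differed by -1.10 ± 0.14 between STAT3-deficient and WT cells (adjusted p = 1.1e-04). More members were called between genotypes, where calls were common: 7 were higher and 3 lower in STAT3-deficient cells in medium (24.3% called overall), 5 and 4 with IL-6 (20.4%) and 4 and 2 with IL-27 (14.7%). In medium Pik3cd, a catalytic subunit of PI3K in leukocytes, was 8.11-fold higher (adjusted p = 2.94e-10), and Rps6, a ribosomal protein, was at -0.80 ± 0.16.

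**Figure D4:**
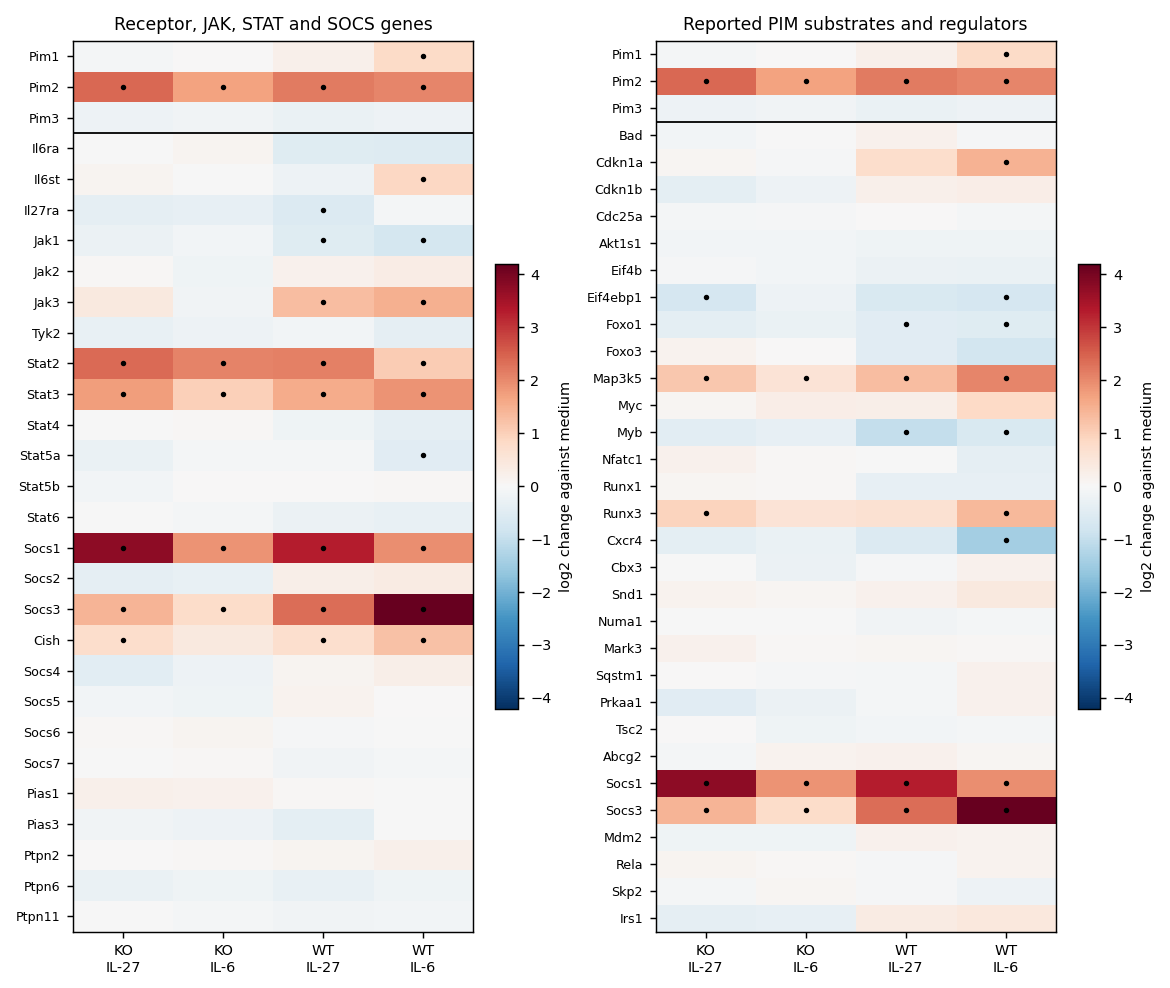
Change in log2 signal against medium (colour scale from blue, lower, to red, higher) for the 3 PIM genes, above the line, and the tested genes of 2 lists below it, in STAT3-deficient (KO) and WT cells with IL-27 or IL-6; black dots mark called changes. Pim2 is dotted in all 4 columns, as are Stat2, Stat3, Socs1, Socs3 and Map3k5, and Pim1 is dotted in WT IL-6 alone.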

How the data were processed

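Total RNA of sorted naive CD4 T cells was hybridised to 18 one-colour arrays. The authors made the deposited intensity values with GCOS, per the submitters' processing notes; its version and algorithm are not stated there. The deposited intensities have a mean of 500.0 on every array after trimming 2% at each end.

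The 64 control probe sets were left out. Signals were taken as log2(signal + 32), which shrinks changes of dim probe sets, and quantile normalised. A probe set was kept if above its array's median on at least 3 arrays (26860 kept). limma 3.58.1 (R 4.3.3) was fitted to the 6 group means with 12 residual degrees of freedom and a variance trend, for 12 two-sided comparisons. Of all probe sets, 34945 had a single gene symbol, 932 several and 9160 none in the annotation used. Other genes were read from their brightest kept probe set. Precision is limited by how few arrays each group has.

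The members, lists and rule for naming genes (members always; up to 4 called genes per list with the largest change; the 5 most correlated genes) were chosen with earlier results of these data known. The fit was tested on simulated data. Alternatives were other scalings, constants, filters, weights, variance models, array subsets, replicate blocks, a marker covariate and leaving out arrays.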

Additional observations from a re-analysis of the deposited data

Results flagged for a closer look

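The IL-6 effect on Pim1 by probe set 1435458_at is listed here because a test of the difference itself separated the genotypes. It was -0.81 on the log2 scale (STAT3-deficient minus WT, limma adjusted p = 0.0123), with effects of 0.01 in STAT3-deficient and 0.82 in WT cells, and was -0.36 and not called by the second probe set.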

How the results depend on the processing

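The 4 Pim2 responses to a cytokine and the Pim1 (1435458_at) response to IL-6 in WT cells kept direction and call under all 33 other settings. Median centring gave, for Pim1 1435458_at, -0.618 for IL-27 against IL-6 in WT cells and -0.494 for the genotype difference in the IL-6 effect, neither called, and for STAT3-deficient against WT -0.601 in medium (reversed) and -0.533 with IL-27, both called. It gave Pim2 0.757 for IL-27 against IL-6 in STAT3-deficient cells and 0.0954 for the genotypes with IL-27, neither called, and -0.541 with IL-6, called. It gave Pim3 1437100_x_at -0.574 between genotypes in medium, reversed and called (limma adjusted p = 0.00846). No variance trend left the Pim1 IL-6 difference (-0.81) and the Pim2 cytokine difference (0.741) uncalled, as did fitting only the arrays compared (0.741) and leaving out arrays numbered 3 (0.704) for the latter. The marker covariate gave 0.0432 for Pim1 1435458_at between genotypes with IL-6, 0.14 in medium and 0.228 with IL-27 for 1423006_at, -0.184 for Pim2 with IL-27, all uncalled, and 0.742, called, for the Pim2 genotype difference in IL-27 minus IL-6. Array weights called Pim2 between genotypes in medium (0.355). Leaving out the STAT3-deficient arrays numbered 1, chosen after seeing the data, called Pim1 1435458_at in medium (0.262) and its genotype difference in IL-27 minus IL-6 (0.53). Leaving out single arrays moved the latter over 0.379 to 0.67, Pim2 IL-27 against IL-6 in STAT3-deficient cells over 0.657 to 0.867, and Pim2 between genotypes with IL-27 over 0.443 to 0.556. The cause of these shifts was not tested.

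Arrays with the same number and genotype correlated at -0.147 to 0.337 (10 of 18 pairs over 0.1), and 5 of 9 STAT3-deficient and 8 of 9 WT arrays correlated best with their own number. The median was 0.116, against -0.0427 for arrays of the same genotype with different numbers, a hint of shared numbers from the data. Since the labels state no pairing and not every pair was over 0.1, the arrays were not taken as paired. With the replicate number within genotype as a block, 1435458_at was called in medium (0.207) and for the genotype difference in IL-27 minus IL-6 (0.519), and 1423006_at for IL-27 against IL-6 in WT cells (-0.533) and for that difference (0.457). It called 1006 probe sets for the IL-6 difference, 93 for IL-27 against IL-6 in STAT3-deficient cells and 423 for the difference in IL-27 minus IL-6, against 594, 55 and 222 without it.

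Over all settings the number called ranged from 996 to 2355 for IL-6 and 560 to 1346 for IL-27 in WT cells, 376 to 909 for IL-27 against IL-6 there, 194 to 472 for IL-6 and 494 to 1453 for IL-27 in STAT3-deficient cells, 17 to 93 for IL-27 against IL-6 there, 369 to 1006 and 2 to 6 for the IL-6 and IL-27 differences and 81 to 423 for their difference. Between genotypes it ranged from 1126 to 11387 in medium, 699 to 7136 with IL-6 and 595 to 5594 with IL-27. The lower ends for some came from testing 1 probe set per gene, which tests fewer features. Of the calls, 72.4% were higher with median centring for the IL-6 difference, against 56.4%, and 17.3% and 15.5% between genotypes with IL-6 and IL-27, against 48.8% and 50.3%.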
